A study of Oryza sativa Japonica Group with 20 samples.

Results

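AB001883, AB001885, AB001887 and AB001888 are rice cDNAs of putative CONSTANS-type zinc finger proteins. These 4 features were taken by identifier from the 27,609 genes on the array and followed in both tissues and at all times. CONSTANS-type proteins are plant transcriptional regulators that carry B-box zinc fingers near one end and a CCT domain near the other. In Arabidopsis, CONSTANS itself promotes flowering in long days, and its rice counterpart Hd1 controls heading date by day length. Transcripts of many genes of this family are set by light and the circadian clock, so that their levels change over the day. Which locus each of the 4 cDNAs comes from was not given in the sources used here, and they are called by their identifiers. No sequence of the array's probes or of the cDNAs was used here.

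Seedlings of the non-transgenic japonica cultivar Nakdong were studied at 14 days of age. They had stood in fresh water for 1 day and were then dried in air at 32°C and 50% humidity under continuous light of 150 μmol per square metre and second, with the roots wrapped in tissue and foil. Root and leaf were collected separately before and after 0.5, 2, 6 or 12 h of drying, with 2 biological replicates for each tissue and time, and each RNA was hybridised to its own single-colour (Cy3) array. How many plants made up a replicate was not given in the sources used here. The greenhouse before had 16 h of light and 8 h of dark. Every dehydrated group was set against 0 h of the same tissue, and no watered plants of the later hours are among the 20 arrays. The effects of dehydration, time of day, continuous light and the move to the chamber on these genes therefore cannot be told apart.

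The deposited values are RMA intensities on a linear scale, each a summary of the probes of a gene, which were 10 for each of the 4 cDNAs. Intensities of different cDNAs are not compared with each other. Across all genes, which are not independent replicates, the r between replicates was 0.899 to 0.981. The control feature of random sequences read 115 to 228 on 18 arrays, but 340 on root 0.5 h replicate 2 and 362 on leaf 0.5 h replicate 1. The dehydration marker rab21 was called higher at 2, 6 and 12 h in both tissues, by 2.24, 2.61 and 2.66 on the log2 scale in root and 1.24, 2.23 and 2.49 in leaf. The other dehydration marker, dip1, was called higher in leaf at 6 and 12 h only, and at no time in root. The green tissue markers rbcS and CB1 to CB6, 7 in all, were each called lower in root than in leaf before dehydration, by 5.18 to 7.69. All 4 cDNAs were above the random feature on every array, at least 1.49 times its intensity, and none was left out by a filter. The other control features, Bar, gus, Hygromycin, Knamycin and sGFP, had higher means than the random feature. In root at 12 h they were 826, 589, 1326, 1121 and 3271, against 773 for AB001885. In root at 0 h sGFP was 2442 and the others 388 to 743, against 2430 for AB001883 and 1298 for AB001887. Whether these root values stood above background was not tested. A change was called at an adjusted p under 0.05 from limma and a log2 change whose size was over 1. The fit held all 20 arrays, with p adjusted over all genes. Precision is limited by the 2 arrays in each group. Where arrays of 2 groups are said to overlap or not, the share of all genes that did the same is not given here. Every later time is set against the same 0 h arrays of its tissue.

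The 4 cDNAs did not move in one direction. AB001888 was higher after 12 h of dehydration in both tissues, AB001885 was lower after 12 h in both tissues and already after 6 h in leaf, and AB001883 was lower in leaf after 6 h. AB001887 was called at no time in either tissue. It was called lower in root than in leaf at every time, and so was AB001883. RNA was taken from whole organs, in which fewer cells of a type and less RNA per cell cannot be told apart.

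**Figure D1:**
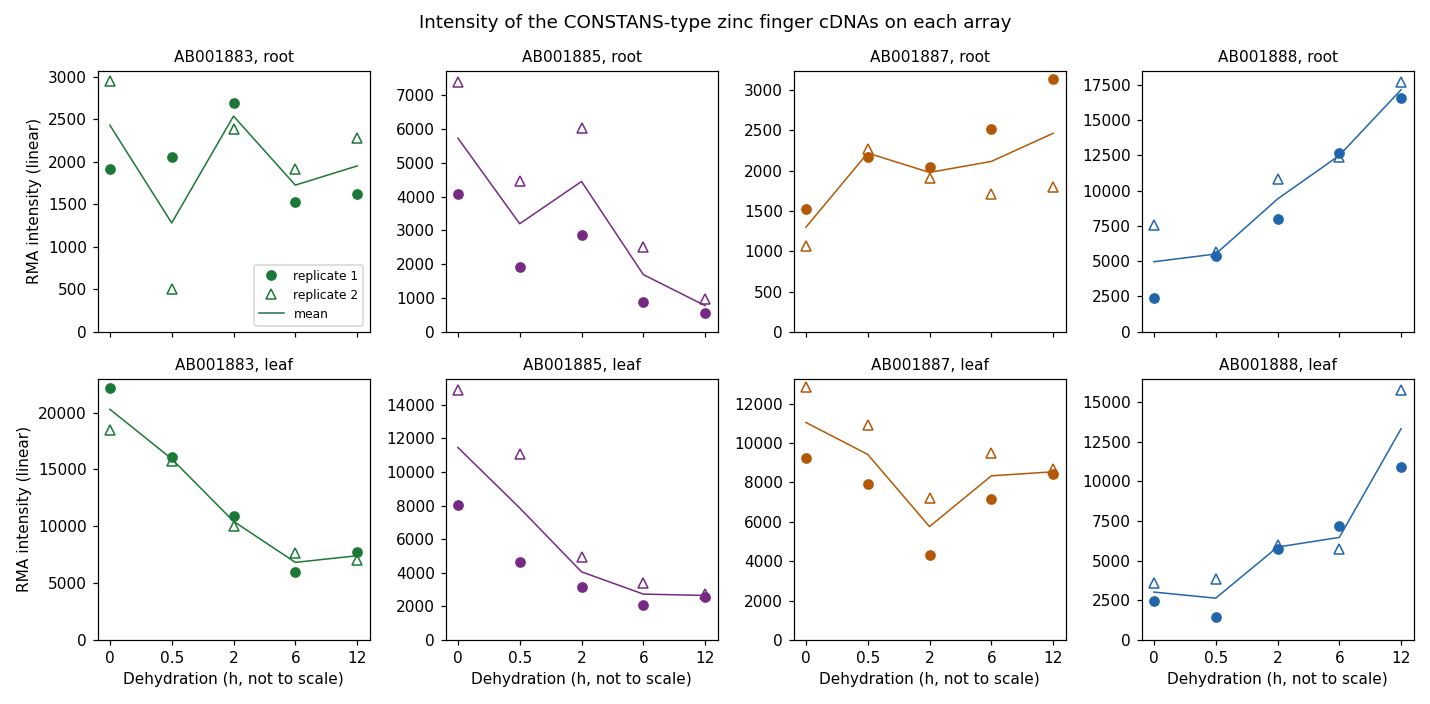
RMA intensity (linear axis from 0, a separate range in each panel) of the 4 cDNAs by time of dehydration (x axis, h) in root (top) and leaf (bottom), with each replicate as a point and the mean of 2 as a line. AB001888 was highest at 12 h in both tissues, and AB001885 in leaf and root and AB001883 in leaf were below their 0 h arrays from 6 h on.

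AB001888 rose in root and leaf, where it was called after 12 h. In root its intensity was 2370 and 7547 on the arrays of 0 h, 5379 and 5630 after 0.5 h, 7986 and 10,811 after 2 h, 12,628 and 12,339 after 6 h, and 16,564 and 17,711 after 12 h. In leaf it was 2455 and 3573 at 0 h, 1440 and 3817 after 0.5 h, 5746 and 5953 after 2 h, 7169 and 5746 after 6 h, and 10,883 and 15,731 after 12 h. From 2 h on, both arrays of each time were above both arrays of 0 h in each tissue, whereas at 0.5 h they overlapped in both.
In root the mean was 17,137 ± 811 after 12 h and 4958 ± 3660 at 0 h (SD, n = 2 each), a log2 change of 2.02 (SE 0.50, adjusted p = 0.0145 from limma). The 2 root arrays of 0 h lay 1.67 log2 units apart, the widest gap of this cDNA between replicates. In leaf the mean was 13,307 ± 3428 after 12 h and 3014 ± 790 at 0 h (SD, n = 2 each), a log2 change of 2.14 (SE 0.50, adjusted p = 0.0101 from limma). After 12 h, 3.31% of all genes were called higher in root and 5.53% in leaf, and 98.5% of genes in root and 97.6% in leaf had a lower change than AB001888. Before 12 h it was not called. The changes were 0.38, 1.14 and 1.56 in root at 0.5, 2 and 6 h (adjusted p = 0.616, 0.289 and 0.0717) and −0.34, 0.98 and 1.12 in leaf (adjusted p = 0.683, 0.22 and 0.139).
The root change at 12 h was 1.18 (adjusted p = 0.201) without root 0 h replicate 1, and its call was also lost without root 12 h replicate 1 (0.0622) or 2 (0.0937). The leaf call was lost when leaf 0 h replicate 1 (0.0807) or leaf 12 h replicate 2 (0.0874) was left out, and both calls were lost with limma's treat test against a log2 change of 1 (0.417 in root and 0.315 in leaf). The root change after 6 h was called under 10 of 31 alternatives, among them either quantile normalization (0.0368 and 0.0389), root 0 h replicate 2 left out (a change of 2.40, 0.0155) and either array of leaf 0.5 h left out (0.0339 each).

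AB001885 fell in both tissues, and in root by more than any other change of the 4 cDNAs over time. In root its intensity was 4078 and 7382 at 0 h, 1930 and 4463 after 0.5 h, 2877 and 6017 after 2 h, 879 and 2505 after 6 h, and 566 and 979 after 12 h. In leaf it was 8020 and 14,909 at 0 h, 4645 and 11,074 after 0.5 h, 3158 and 4955 after 2 h, 2079 and 3378 after 6 h, and 2567 and 2728 after 12 h. Both arrays lay below both arrays of 0 h from 2 h on in leaf and from 6 h on in root.
In root the mean was 773 ± 292 after 12 h and 5730 ± 2336 at 0 h (SD, n = 2 each), so that 13.5% of the 0 h mean was left. The root mean at 12 h was below those of the control features Bar, Hygromycin, Knamycin and sGFP and above that of gus. Whether it stood above background was not tested. The log2 change was −2.88 (SE 0.62, adjusted p = 0.00721 from limma), against −1.89 after 6 h (adjusted p = 0.0832). In leaf the mean was 2648 ± 114 after 12 h and 11,464 ± 4872 at 0 h (SD, n = 2 each), which left 23.1%. The leaf changes were −1.47 after 2 h (adjusted p = 0.142), −2.04 after 6 h (adjusted p = 0.0425) and −2.05 after 12 h (SE 0.62, adjusted p = 0.0385 from limma). At 0.5 h the change was −0.61 in leaf (adjusted p = 0.558) and −0.90 in root (adjusted p = 0.346), and in root at 2 h it was −0.40 (adjusted p = 0.92). The share of all genes called lower was 10.9% in root and 10.2% in leaf after 12 h and 8.72% in leaf after 6 h. It depended on the scaling, with 9.46% lower and 5.12% higher in root after 12 h under quantile normalization of all arrays, and 8.88% lower and 7.39% higher in leaf after 12 h and 7.85% lower and 9.16% higher after 6 h, against 5.72% higher as deposited, with arrays centred on their medians.
Replicate 2 was above replicate 1 in all 10 groups of tissue and time, by 0.09 to 1.51 log2 units (median 0.88), a pattern that 4.20% of all genes showed. AB001885 had the widest SE of the 4 cDNAs. With the replicate number as a block, its changes in leaf at 2 h (adjusted p = 0.00897) and in root at 6 h (0.00181) were also called. The root call at 12 h was lost without root 0 h replicate 2 (adjusted p = 0.0649) or root 12 h replicate 1 (0.0659) and with treat (0.12). The leaf calls were lost without leaf 0 h replicate 1 (0.0641 at 6 h and 0.0633 at 12 h) or 2 (0.258 and 0.241), with treat (0.698 and 0.636), and without either leaf array of the time tested (0.206 and 0.109 at 6 h, 0.145 and 0.135 at 12 h). At 6 h the leaf call was also lost in a fit of the 10 leaf arrays alone (0.051) and without either array of leaf 12 h (0.0531 each) or root 12 h (0.0504 each), and at 12 h with array weights (0.0516).

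AB001883 was higher in leaf than in root at every time, and in leaf it fell. In leaf its intensity was 22,154 and 18,422 at 0 h, 16,096 and 15,762 after 0.5 h, 10,856 and 10,013 after 2 h, 6009 and 7630 after 6 h, and 7761 and 7043 after 12 h. The arrays of each time up to 6 h lay below those of the time before, and those of 6 and 12 h overlapped. The leaf mean was 6819 ± 1147 after 6 h and 20,288 ± 2639 at 0 h (SD, n = 2 each), a log2 change of −1.58 (SE 0.47, adjusted p = 0.0397 from limma). The change at 12 h was −1.45 (SE 0.47, adjusted p = 0.0515), close to that at 6 h on the other side of the threshold, whereas it was −0.95 after 2 h (adjusted p = 0.211) and −0.34 after 0.5 h (adjusted p = 0.663).
In root its intensity was 1912 and 2948 at 0 h, 2054 and 506 after 0.5 h, 2690 and 2384 after 2 h, 1530 and 1920 after 6 h, and 1625 and 2276 after 12 h. The arrays of every later time overlapped with those of 0 h, and no change was called in root. The log2 changes were −1.22, 0.09, −0.47 and −0.30 (adjusted p = 0.148, 0.988, 0.655 and 0.744 from limma), and the 95% interval after 12 h ran from −1.33 to 0.72. The value of 506 came from root 0.5 h replicate 2, which had raised control features, and lay 2.02 log2 units below replicate 1. With that array alone, root 0.5 h replicate 1 left out, the root change was −2.23 (adjusted p = 0.00109).
The green tissue markers also moved in leaf, where their intensities summed to 153,970 and 173,290 at 6 h and 115,732 and 114,316 at 12 h, against 304,888 and 285,810 at 0 h. Of the 7 markers, 0 were called lower at 6 h (log2 changes of −1.15 to −0.44) and 3 at 12 h (−1.90 to −0.78 over all 7). Their part in the leaf values of AB001883 and AB001885 was not tested.
The leaf call of AB001883 at 6 h was lost with treat (adjusted p = 0.974) and without 10 arrays, each in turn. They were leaf 0 h replicate 1 (0.145) or 2 (0.124), leaf 6 h replicate 1 (0.178) or 2 (0.124), either array of leaf 12 h (0.0505), either of root 2 h (0.0551) and either of root 6 h (0.0538). The change at 12 h was called under 10 of 31 alternatives, among them the 10 leaf arrays alone (0.0168), quantile normalization of all arrays (0.0191) and either array of root 0.5 h left out (0.0026 each).

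AB001887 gave no called change in either tissue. In leaf its intensity was 9256 and 12,829 at 0 h, 7932 and 10,908 after 0.5 h, 4329 and 7181 after 2 h, 7153 and 9509 after 6 h, and 8416 and 8658 after 12 h. The lowest leaf mean was that of 2 h, where the log2 change was −0.97 (SE 0.35, adjusted p = 0.0882 from limma, 95% interval −1.73 to −0.21). Both arrays of 2 h lay below both of 0 h. The other leaf changes were −0.23 after 0.5 h and −0.40 after 6 h (adjusted p = 0.698 and 0.473), and −0.35 after 12 h (95% interval −1.11 to 0.41, adjusted p = 0.601).
In root its intensity was 1530 and 1066 at 0 h, 2175 and 2265 after 0.5 h, 2051 and 1908 after 2 h, 2515 and 1716 after 6 h, and 3138 and 1792 after 12 h. All 8 arrays of dehydrated root were above both arrays of 0 h. The later times share these arrays of 0 h, and the share of all genes with this pattern is not given here. The means of the 6 control features moved in root too. As a percentage of root 0 h they were 172 to 306 after 0.5 h and 95.8 to 129 after 2 h. After 6 h they were 118 to 189, and after 12 h 133 to 189. AB001887 was at 171, 152, 163 and 190% of its root 0 h mean at these times. Whether the root rise of AB001887 went beyond that of the control features was not tested. The root changes were 0.80, 0.63, 0.70 and 0.89 after 0.5, 2, 6 and 12 h (adjusted p = 0.18, 0.468, 0.283 and 0.114 from limma), each short of the log2 threshold of 1. After 12 h the change was 1.15 and called with quantile normalization of all arrays (adjusted p = 0.0351) or within each tissue (0.0345). This normalization moved the median change of all genes by 0.14, and relative to that median the change of AB001887 was 1.02, against 0.91 as deposited.
The green tissue markers were also higher in dehydrated root. Their intensities summed to 12,074 to 42,382 on the 8 arrays of dehydrated root and to 5007 and 5940 on the root arrays of 0 h, against 285,810 and 304,888 in leaf at 0 h. Of the 7 markers, 2, 3 and 7 were called higher in root after 2, 6 and 12 h. Their part in the values of AB001887 and of the other cDNAs in root was not tested.

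**Figure D2:**
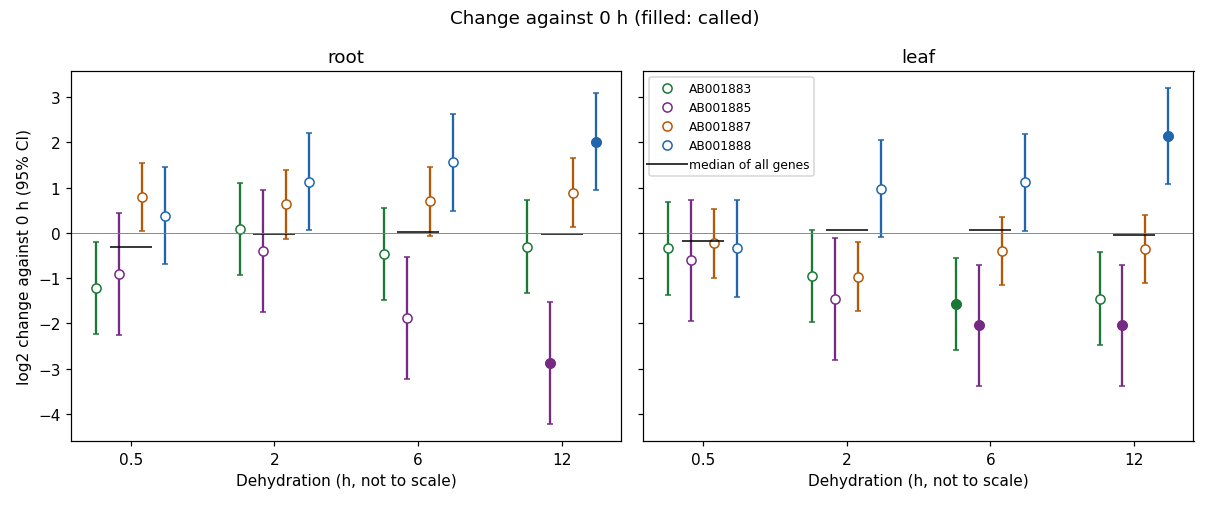
Log2 change against 0 h of the same tissue (y axis) by time (x axis, h) in root (left) and leaf (right) for the 4 cDNAs, with 95% intervals from limma. Filled points were called (AB001888 and AB001885 at 12 h in both tissues, AB001885 and AB001883 at 6 h in leaf), and black bars give the median of all genes, between −0.30 and 0.07.

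Over the 16 combinations of cDNA and time, 2 changes were called in root, 1 higher and 1 lower, and 4 in leaf, 1 higher and 3 lower. At 0.5 h and 2 h none of the 4 cDNAs was called in either tissue by limma, where 1.69% and 3.46% of all genes were called in root and 0.406% and 11.9% in leaf. At 6 h none was called in root, where 8.31% of genes were. In these comparisons, at unadjusted p under 0.05, AB001883 and AB001887 passed in root at 0.5 h, AB001888 in root at 2 h, AB001885 and AB001887 in leaf at 2 h, and AB001885 and AB001888 in root at 6 h. The share of all genes at that threshold was 25.8%, 15.1% and 21.1% in root after 0.5, 2 and 6 h and 20.9% and 28% in leaf after 0.5 and 2 h. Among the other changes that were not called, AB001888 in leaf at 6 h, AB001883 in leaf at 12 h and AB001887 in root at 12 h also passed. There 8898, 8014 and 7470 of the 27,609 genes passed. Without leaf 0.5 h replicate 1 and root 0.5 h replicate 2, a choice made after seeing the data, 4 changes were called in root and 5 in leaf. The additional calls were AB001885 and AB001888 in root at 6 h and AB001883 in leaf at 12 h, with the log2 changes of the main fit. The share of all genes called in that fit is not given here. Whether these calls went beyond a general rise in calls was not tested.

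The cDNAs were also set against each other within single arrays. A ratio of 2 cDNAs on one array is not moved by a factor common to the whole array, though quantile normalization can move it, and its change from 0 h shows how unequally they changed, without showing which one moved. The log2 ratio of AB001888 to AB001885 was above its 0 h mean by 5.25 and 4.55 on the root arrays of 12 h, against −0.41 and 0.41 on those of 0 h, and by 3.97 and 4.41 on the leaf arrays of 12 h, against 0.18 and −0.18 on those of 0 h. In both tissues both arrays of each dehydrated time were above both of 0 h. The mean changes were 1.28, 1.53, 3.45 and 4.90 in root and 0.27, 2.45, 3.16 and 4.19 in leaf after 0.5, 2, 6 and 12 h. In leaf at 0.5 h the margin was small, with 0.19 on replicate 1 and 0.35 on replicate 2. Replicate 1 of leaf 0.5 h had raised control features. These ratios rest on the same 0 h arrays as the changes above and are no second test of them.
The ratio of AB001888 to AB001883 was above its 0 h mean by 2.32 in root and 3.59 in leaf at 12 h, with no overlap with 0 h in either tissue. The ratio of AB001888 to AB001887 was above by 2.50 in leaf at 12 h without overlap, whereas in root the arrays of every time overlapped with those of 0 h (1.13 at 12 h). AB001885 and AB001883, both lower in leaf at 6 h, kept a ratio there whose arrays overlapped with those of 0 h at every time. In root their ratio was below its 0 h mean by 1.42 at 6 h and 2.58 at 12 h, without overlap.

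**Figure D3:**
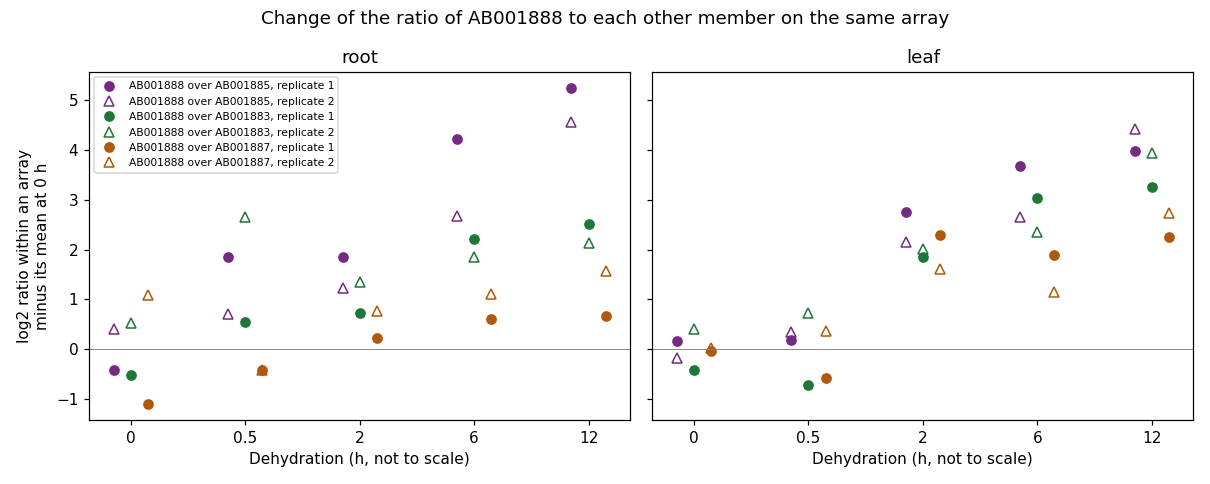
Log2 ratio of AB001888 to each of the other 3 cDNAs on the same array, minus its mean on the 0 h arrays of that tissue (y axis), by time (x axis, h) in root (left) and leaf (right), with one point per array. The ratio to AB001885 reached 5.25 and 4.55 in root and 3.97 and 4.41 in leaf at 12 h.

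Root was compared with leaf at each time, where both tissues had been sampled at the same hour. AB001883 and AB001887 were lower in root at all 5 times, and the other cDNAs were called at none. Before dehydration the mean of AB001883 was 2430 ± 733 in root and 20,288 ± 2639 in leaf (SD, n = 2 each), a log2 difference of −3.09 (SE 0.47, adjusted p = 0.000376 from limma). The mean of AB001887 was 1298 ± 328 in root and 11,043 ± 2527 in leaf at 0 h (SD, n = 2 each), a log2 difference of −3.09 (SE 0.35, adjusted p = 3.52e-05 from limma). No root array of either cDNA reached any leaf array at any time.
At 12 h the difference was −1.94 for AB001883 (adjusted p = 0.0142) and −1.85 for AB001887 (adjusted p = 0.00337). At 0.5, 2 and 6 h it was −3.97, −2.04 and −1.98 for AB001883 and −2.07, −1.49 and −1.99 for AB001887. The share of all genes called lower in root than in leaf was 7.19% before dehydration and 7.33%, 11.5%, 8.27% and 5.9% after 0.5, 2, 6 and 12 h. After 2 h quantile normalization of all arrays gave 10.2% lower and 10.9% higher, against 11.5% and 6.95% as deposited. AB001888 lay between 0.39 and 1.23 above leaf in root (lowest adjusted p = 0.114, at 0.5 h), and without leaf 0.5 h replicate 2 the difference at 0.5 h was 1.93 and called (adjusted p = 0.0193). AB001885 lay between −1.83 and 0.07 (lowest adjusted p = 0.0681, at 12 h). It was called lower in root at 12 h with the trend and robust prior (0.0436), with the replicate number as a block (0.00121) and without both arrays with raised control features (0.0379), and at 0.5 h with the block (0.0076).
The differences at 0 h held under all 30 alternatives. With treat AB001883 lost its call at 2, 6 and 12 h (adjusted p = 0.263, 0.343 and 0.457) and AB001887 after 0.5, 2, 6 and 12 h (0.0783, 0.668, 0.14 and 0.266). Single arrays ended the call of AB001883 at 2 h (leaf 2 h replicate 2, 0.0559, or root 2 h replicate 2, 0.0721), at 6 h (leaf 6 h replicate 2, 0.099, or root 6 h replicate 1, 0.0875, or 2, 0.0512) and at 12 h (leaf 12 h replicate 1, 0.073, or 2, 0.0726, or root 12 h replicate 1, 0.112). For AB001887 they were leaf 2 h replicate 2 (0.129) and root 2 h replicate 1 (0.0516) or 2 (0.0753) at 2 h, and root 12 h replicate 2 (0.0521) at 12 h, and array weights ended its call at 0.5 h (0.113).

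**Figure D4:**
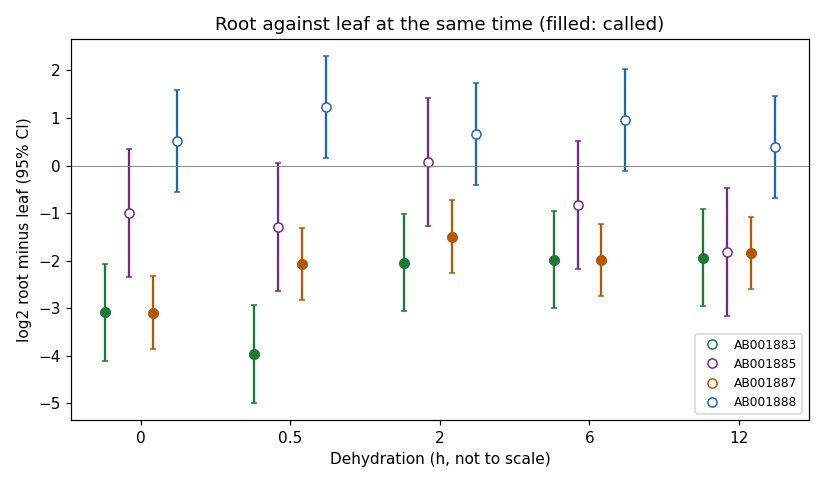
Log2 difference of root minus leaf at the same time (y axis) by time (x axis, h) for the 4 cDNAs, with 95% intervals from limma. Filled points were called, which are AB001883 and AB001887 at all 5 times, from −3.97 to −1.49.

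Whether the change over time differed between the tissues was tested as an interaction. None of the 16 differences of a root change from a leaf change was called by limma, and 3 had an unadjusted p under 0.05, all of AB001887. For AB001887 the root change was above the leaf change by 1.60 at 2 h (SE 0.50, adjusted p = 0.11), 1.10 after 6 h (adjusted p = 0.248) and 1.25 after 12 h (adjusted p = 0.186). The share of all genes called was 0.00362%, 2.28%, 2.94% and 4.52% after 0.5, 2, 6 and 12 h, and the share at an unadjusted p under 0.05 was 5.28%, 17.6%, 19% and 18.9%. The difference at 12 h was −0.13 for AB001888 (95% interval −1.64 to 1.39), −0.83 for AB001885 (−2.74 to 1.07) and 1.15 for AB001883 (−0.30 to 2.59). The intervals are wide, so that equal changes in root and leaf are not shown for any of them, and the leaf fall of AB001883 is not shown to be absent from root.

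From 2 h to 12 h none of the 4 cDNAs was called in either tissue by limma, where 0.688% of genes were called in root and 1.03% in leaf. This comparison does not use the arrays of 0 h. AB001885 in root was 773 ± 292 after 12 h and 4447 ± 2220 at 2 h (SD, n = 2 each), a log2 change of −2.48 (SE 0.62, adjusted p = 0.105 from limma), and 0.478% of genes had a lower one. AB001888 in leaf was 13,307 ± 3428 after 12 h and 5850 ± 147 at 2 h (SD, n = 2 each), a change of 1.16 (SE 0.50, adjusted p = 0.206 from limma). These were the 2 of 8 changes with an unadjusted p under 0.05, which 9.23% of all genes had in root and 19.8% in leaf. The root change of AB001885 was called with the replicate number as a block (adjusted p = 0.0035) and with array weights (0.0205), the second of which was chosen after seeing the data.

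Ordered by mean log2 level over the 10 groups, AB001883 and AB001887 had every leaf group above every root group. For AB001883 the order began with leaf at 0, 0.5 and 2 h, and of its 9 pairs of neighbours 5 had overlapping replicates, among them leaf at 12 and 6 h and all neighbours within root. For AB001887 leaf at 0 h was highest and root at 0 h lowest, and 7 pairs of neighbours overlapped. For AB001885 leaf at 0 h was highest and root at 12 h lowest with tissues mixed between them, and 8 pairs overlapped. For AB001888 root at 12 h was highest, followed by leaf at 12 h and root at 6 h, and leaf at 0.5 h was lowest, with 5 pairs overlapping.

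The genes with the most similar pattern were found by Pearson's r over the 20 arrays, with the mean of each tissue taken off, among 25,451 genes above the random feature. The points share the arrays and their scaling, and r is given as a description. AB001888 was most like AK073342 (r = 0.95) and AK107194 (r = 0.95), and 755 genes had an r above 0.8 with it. AB001885 was most like AK100857 and AK120212 (r = 0.94 each), with 110 genes above 0.8, and AB001883 was most like AK066697 (r = 0.93) and AK099894 (r = 0.91), with 233. On root 0.5 h replicate 2, where AB001883 read 506, AK066697 read 33.6 and AK099894 70.7, both below the random feature of 340. The r of AB001883 without that array was not computed. With no tissue mean taken off, its r was 0.97 with AK066697 and 0.49 with AK099894. AB001887 had 1 gene above 0.8, X83434 (r = 0.82), followed by Os08g0423500 (r = 0.77). With no tissue mean taken off, so that the level difference between the tissues counted, its r with them was 0.98 and 0.95. Between the 4 cDNAs r was highest for AB001883 with AB001885 (0.39) and lowest for AB001885 with AB001888 (−0.57). The files do not pair the identifiers of these genes with names.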

How the data were processed

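Per the labels, the authors summarised the probes of each gene on a NimbleGen 3′-tiling array by RMA. The intensity values they deposited are linear, not logarithms. The background step and the set of arrays normalized together were not given in the sources used here. Both deposited tables of all arrays held the same values, and a separate root 0 h table was within 0.0509 of root 0 h replicate 1. The log2 of each intensity was used as it stood, unfiltered and without another normalization, and the 6 control features were left out. The 20 arrays entered one model with 10 group means, fitted with lmFit and eBayes of limma 3.58.1 (R 4.3.3), where the residual degrees of freedom were 10 and the prior ones 3.43. The Benjamini-Hochberg adjustment of p-values ran over 27,609 genes within each of 19 comparisons, and calls followed the thresholds of the study's methods. Errors are standard deviations between replicates, standard errors are those of limma, and intervals are at 95%.

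The 4 cDNAs and all lists were chosen with earlier results of these data known. The rule for named genes took these cDNAs, the 2 genes most alike in pattern to each, and rab21 and rbcS. The genes CB1 to CB6 served as markers of green tissue with rbcS, and dip1 was a second dehydration marker (called higher in leaf at 6 and 12 h, by 1.18 and 1.17 on the log2 scale, and at no time in root). A list of photoperiod and clock genes could not be applied, since 0 identifiers of the array matched the table of gene names. The procedure was tested on simulated data whose noise was independent between arrays. Replicate deviations in the real data were correlated between groups, so that test cannot speak for a fit without a replicate term. The alternatives changed the scaling (quantile normalization over both tissues or tissue by tissue, or centring of every array on its median), the genes (without the dimmest 25%), the arrays (those of 1 tissue, or all except 1 in turn), the prior of eBayes (trend and robust), the test (treat) and the call rule (no minimum log2 change), or added the replicate number as a block, and, chosen after seeing the data, both arrays with raised control features left out and array weights.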

Additional observations from a re-analysis of the deposited data

How the results depend on the processing

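The 16 called changes and differences had 486 values under the alternatives. The call was kept in 429 and lost in 57, and the sign of none turned. Much of this was fixed by the settings. Dropping the minimum log2 change cannot lose a call. Treat, the eBayes prior, the block and arrays left out of other groups leave the log2 change, and so its sign, as it was. Each leaf call against 0 h was lost without single arrays of its own groups, as given above. Of 1834 values of the other 60 changes, 34 were called and 36 had another sign while not called. With treat 0 changes were called in leaf and 0 in root against 0 h, and 3 differences of root against leaf. With either quantile normalization 4 were called in root against 0 h, as with array weights and without both arrays with raised control features, and array weights called 1 change from 2 h to 12 h. Leaving out single arrays gave 0 to 5 calls in leaf, 0 to 3 in root, 8 to 11 in root against leaf, 0 between root and leaf changes and 0 from 2 h to 12 h.
The labels link replicates of different groups only by their number, for which the main fit had no term. Their deviations correlated between groups at r of −0.16 to 0.72 (median 0.31), over 0.1 in 38 of 45 pairs of groups. With the number as a replicate block 6 changes were called in leaf, with AB001885 at 2 h (adjusted p = 0.00897) and AB001883 at 12 h (0.0489) added, 4 in root, with AB001885 (0.00181) and AB001888 (0.0315) at 6 h added, 1 from 2 h to 12 h (AB001885 in root, 0.0035), and 12 in root against leaf, with AB001885 at 0.5 h (0.0076) and 12 h (0.00121) added. The block changed no other call of the 4 cDNAs. The share of all genes called with the block, or with the other alternatives apart from the scaling, is not given here.
Of the 8 genes most alike in pattern, 7 were found after quantile normalization and 3 with no tissue mean taken off. The scaling alternatives moved the median change of all genes by up to 0.26 (leaf 0.5 h, arrays centred on their medians). The precision is limited by the 2 arrays in each group.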
